A study of Homo sapiens with 6 samples.

Results

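The genes described here encode the machinery that folds proteins in the endoplasmic reticulum (ER), together with the sensors and degradation factors of the unfolded protein response. The list holds 37 genes, and each was represented by those array probe sets that the platform annotation assigns to its symbol alone. All 37 had such a probe set, 132 in all, out of 18132 genes with one on the array. The brightest probe set of a gene, by its mean over all arrays, stood for the gene, and its other probe sets served as a check. Of the 37 genes 36 lay above the floor for dim signal, a log2 value of 4.64, and could be tested among 12221 genes. The exception was ERN1.

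The cells were ARPE-19, an established human line from the retinal pigment epithelium, a pigmented sheet that supports the photoreceptors. Cells of both groups were transfected with a GFP plasmid, per the treatment protocol, and 48 h later were either left without the enzyme (0 h, 3 arrays) or given 10 mU/ml glucose oxidase for 3 h (3 arrays). Glucose oxidase releases hydrogen peroxide as it oxidises glucose in the medium. The descriptions of the 3 h samples name GFP-Satllite alpha in place of GFP, so the groups may also differ in the transfected construct. No label names separate cultures or a group held for 3 h without enzyme, so p-values measure the spread between these arrays, which may be technical. In RNA from whole cultures, fewer cells that express a gene and less RNA per cell cannot be told apart.

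Secreted and membrane proteins fold in the ER with the help of the chaperone BiP, lectin chaperones that bind sugar chains, and disulfide isomerases that shuffle cysteine bonds. When unfolded proteins build up, the sensors IRE1 (gene ERN1), PERK (EIF2AK3) and ATF6 start the unfolded protein response. IRE1 splices XBP1 mRNA, PERK slows translation, and ATF6 is cut into a transcription factor. Their targets include chaperones and the factors of ER-associated degradation (ERAD), which returns misfolded proteins to the cytosol. The pigment epithelium carries a steady load of secretion and of oxidant exposure, and disulfide formation itself uses an oxidant. Arrays of this kind measure transcript level and cannot show XBP1 splicing, PERK activity or ATF6 cleavage.

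Many of these genes are known for the ER stress element in their promoters, and the sequences that hold it are shown first because the genes that carry it differed by their brightest probe sets. The element (ERSE) was searched as CCAAT and CCACG with any 9 bases between them, its shorter form (ERSE-II) as ATTGG and CCACG with any 1 base between them, and the core of the unfolded protein response element (UPRE) as TGACGTGG. Both strands were searched in RefSeq promoters of GRCh38.p14, from 250 bases before to 50 bases after each gene's start, and 34 of the 37 genes had an entry. ERSE was found in 8 of these 34 genes (23.5%), against 25 of 27305 genes in the promoter table (0.0916%) and 27 of 35116 promoters (0.0769%). The 25 genes include these 8. Because many of the listed genes are known for ERSE, its high share among them follows in part from the list itself and is only a description. ERSE-II was found in 3 of the 34 genes (8.82%), HYOU1, SDF2L1 and HERPUD1, against 19 of 27305 genes (0.0696%) and 19 of 35116 promoters (0.0541%). The UPRE core was found in HYOU1 and DNAJC10 (5.88% of the 34), against 253 of 27305 genes (0.927%) and 256 promoters (0.729%). PDIA3, DERL1 and DERL3 had no entry.

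The promoters of HSPA5 (BiP) and CALR (calreticulin) are printed in full up to the start site, because their brightest probe sets moved in opposite directions, and capitals mark the matches. Other probe sets of HSPA5 rose as CALR did, by up to 1.36 on the log2 scale, and its dimmest did not pass. The windows lie at chr9:125241344-125241593 (minus strand) for HSPA5 and chr19:12938359-12938608 (plus strand) for CALR. The HSPA5 match spans 66 to 48 bases before the start on the gene's strand. The CALR match spans 225 to 207 bases before the start on the opposite strand, so it reads there as the reverse complement.
HSPA5: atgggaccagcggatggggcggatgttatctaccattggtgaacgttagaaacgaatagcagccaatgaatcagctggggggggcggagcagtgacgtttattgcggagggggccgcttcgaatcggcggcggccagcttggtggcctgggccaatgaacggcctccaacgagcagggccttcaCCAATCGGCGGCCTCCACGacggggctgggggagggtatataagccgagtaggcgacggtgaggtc
CALR: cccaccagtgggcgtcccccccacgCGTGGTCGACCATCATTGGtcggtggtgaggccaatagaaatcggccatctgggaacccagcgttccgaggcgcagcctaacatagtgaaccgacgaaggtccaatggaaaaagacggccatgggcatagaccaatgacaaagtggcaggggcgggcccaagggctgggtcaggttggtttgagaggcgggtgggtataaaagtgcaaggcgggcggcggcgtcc

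The UPRE core match of DNAJC10 is not printed. Shorter windows show the matches in the other genes that hold ERSE or ERSE-II, with up to 20 bases on each side. They lie at chr12:103930196-103930359 (plus) for HSP90B1, chr11:119057254-119057413 (minus) for HYOU1, chr5:179698758-179698816 (plus) for CANX and chr2:10812833-10812891 (minus) for PDIA6. Those of CRELD2 (chr22:49918534-49918592, plus), XBP1 (chr22:28800583-28800641, minus), ERO1B (chr1:236282163-236282208, minus), HERPUD1 (chr16:56932005-56932055, plus) and SDF2L1 (chr22:21642094-21642144, plus) follow. HSP90B1 holds 2 matches to ERSE, one on each strand. HYOU1 holds 2 matches to ERSE-II, and its UPRE core overlaps the first of them. PDIA6 and XBP1 each have 2 promoter entries and CANX has 4, and the entry printed is the first with a match.
HSP90B1: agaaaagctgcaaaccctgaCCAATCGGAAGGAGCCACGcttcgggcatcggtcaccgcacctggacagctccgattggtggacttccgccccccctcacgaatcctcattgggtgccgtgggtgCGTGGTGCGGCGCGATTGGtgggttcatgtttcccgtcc
HYOU1: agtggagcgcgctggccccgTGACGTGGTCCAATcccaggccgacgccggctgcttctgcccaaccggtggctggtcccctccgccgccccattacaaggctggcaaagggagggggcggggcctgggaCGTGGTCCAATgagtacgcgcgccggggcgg
CANX: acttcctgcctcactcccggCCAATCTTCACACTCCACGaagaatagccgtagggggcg
PDIA6: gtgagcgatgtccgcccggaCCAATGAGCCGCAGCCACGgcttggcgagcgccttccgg
CRELD2: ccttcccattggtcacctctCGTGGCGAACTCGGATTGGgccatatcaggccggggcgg
XBP1: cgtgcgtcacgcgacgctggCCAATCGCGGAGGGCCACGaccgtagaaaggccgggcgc
ERO1B: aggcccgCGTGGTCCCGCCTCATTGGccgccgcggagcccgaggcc
HERPUD1: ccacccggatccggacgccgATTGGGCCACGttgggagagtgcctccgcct
SDF2L1: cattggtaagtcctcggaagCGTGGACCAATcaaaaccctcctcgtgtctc

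After 3 h the ER genes split in both directions. By the brightest probe set, 9 of the 36 tested genes rose, 14 fell and 13 did not pass an adjusted p of 0.05 (limma, Benjamini-Hochberg over all 12221 genes). The calreticulin gene CALR and the disulfide isomerase gene P4HB had the largest increases, and the PERK gene EIF2AK3 and the BiP cofactor gene DNAJB9 the largest decreases. The share called, 63.9%, stands beside 51.3% of all genes tested, of which 20.6% rose and 30.8% fell, and the median log2 change was -0.09 beside -0.04 for all genes tested. Arrays of the groups did not overlap for 26 of the 36 genes (10 higher and 16 lower at 3 h), beside 60.5% of all genes tested. Without 0 h replicate 1 the lower calls numbered 8, and without 0 h replicate 2 they numbered 9. The largest change by this measure was under 2-fold (CALR, 1.97-fold).

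**Figure D1:**
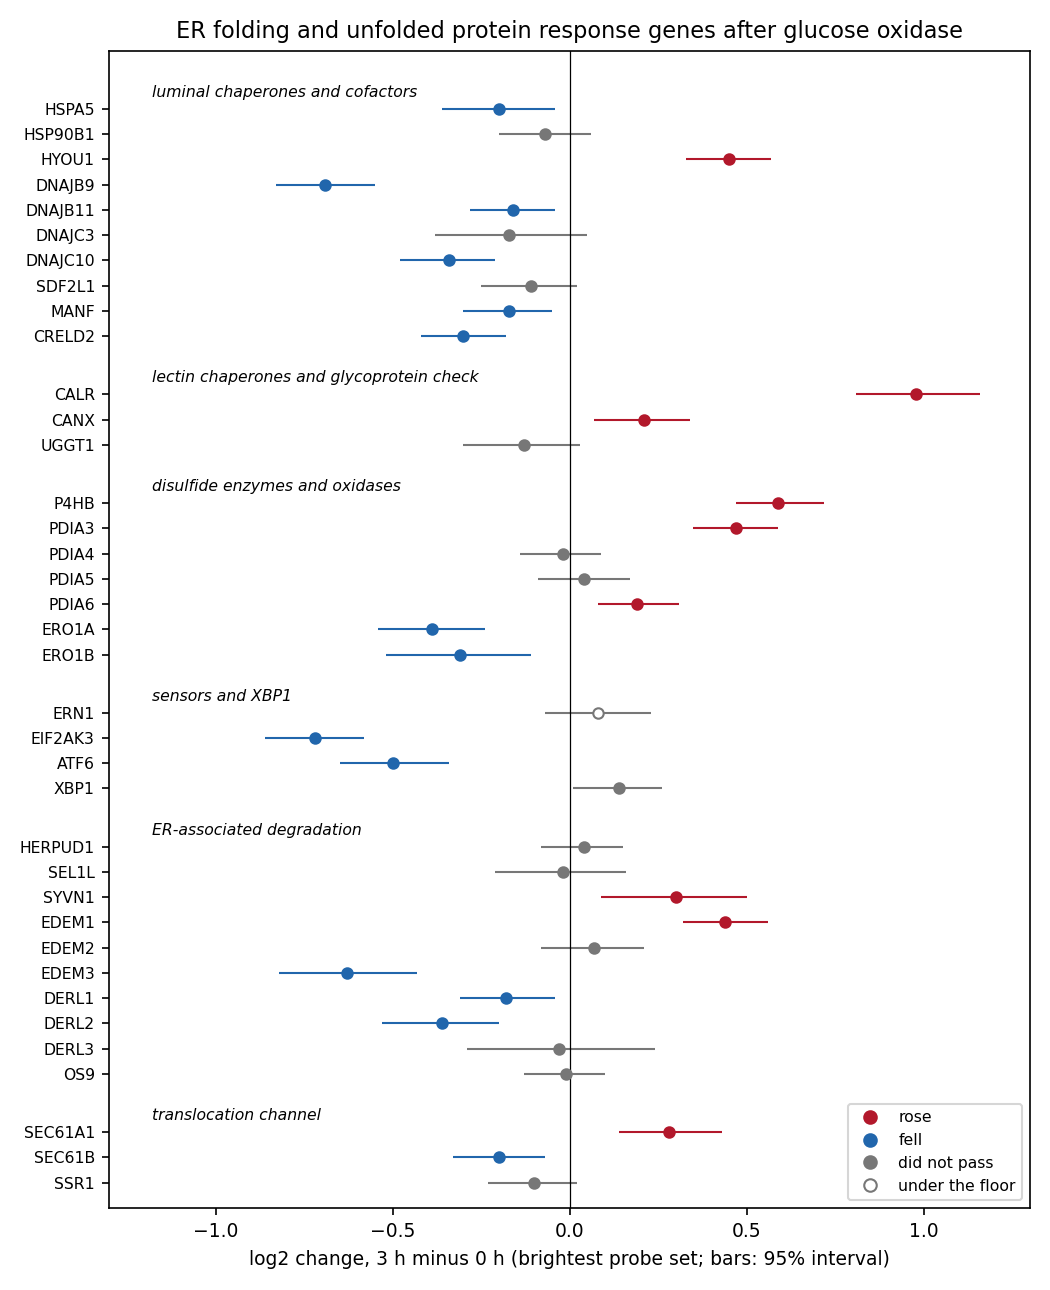
Log2 change (3 h minus 0 h) of the brightest probe set of each gene, with its 95% interval from limma, grouped by role. Red points rose, blue points fell, grey points did not pass, and the open point (ERN1) lay under the floor; 9 red points lie right of 0 and 14 blue points left of it.

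Of the 10 luminal chaperone and cofactor genes 1 rose, 6 fell and 3 did not pass by this measure, beside 20.6% and 30.8% of all genes tested. Among the 6 that fell, the call of DNAJB9 held under every alternative that gave it a value, while those of DNAJB11, DNAJC10, MANF and CRELD2 ended under some. The HSPA5 call ended under some alternatives and turned into a called rise under other choices of probe set. DNAJB9 encodes a J-domain cofactor of BiP that also restrains IRE1. Its log2 values were 8.61, 8.73 and 8.70 at 0 h and 7.91, 8.03 and 8.03 at 3 h. All 3 h arrays lay below all 0 h arrays. The decrease was 1.62-fold (log2 change -0.69, SE 0.06, n = 3 per group, limma adjusted p = 8.27e-05), and DNAJB9's other probe set above the floor fell by 0.38.

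DNAJC10, a J-domain protein that reduces disulfides of ERAD substrates, stood at 8.32, 8.27 and 8.38 at 0 h and at 8.00, 7.92 and 8.01 at 3 h. The groups did not overlap, and the gene fell by 0.34 (limma adjusted p = 0.00132). Its 5 probe sets above the floor ranged from -0.80 to -0.18 in log2 change, and the call ended without shared or cross-hybridizing ones (-0.21, limma adjusted p = 0.171). CRELD2, a secreted ER stress protein, read 9.29, 9.27 and 9.21 at 0 h against 8.99, 8.95 and 8.92 at 3 h. It was lower on every 3 h array and fell by 0.30 (limma adjusted p = 0.00179), or -0.12 and not called when averaged with its second probe set, which lay under the floor.

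HYOU1, a large chaperone that exchanges nucleotide on BiP, was the member of this group that rose. Its values were 8.46, 8.43 and 8.48 at 0 h and 8.93, 8.92 and 8.88 at 3 h. Every 3 h array was higher, by 1.37-fold on average (log2 change 0.45, SE 0.05, n = 3 per group, limma adjusted p = 0.00021). Of its 8 probe sets above the floor 5 rose, by 0.36 to 1.24, and 3 did not pass. The J-domain gene DNAJB11 fell by 0.16 (limma adjusted p = 0.0319) and MANF, a secreted trophic factor that binds BiP, fell by 0.17 (limma adjusted p = 0.0282). Neither call held with the replicate number as a block (limma adjusted p = 0.0765 and 0.0667). DNAJC3, an inhibitor of eIF2 kinases, and SDF2L1, a cofactor of the J-domain proteins, had log2 changes of -0.17 and -0.11 and did not pass (limma adjusted p = 0.178 and 0.148).

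HSPA5 encodes BiP, the main HSP70 chaperone of the ER, and its probe sets gave opposite readings. The brightest one read 12.07, 12.03 and 12.17 at 0 h and 11.97, 11.93 and 11.77 at 3 h. These groups did not overlap, and the log2 change of -0.20 passed narrowly among genes (limma adjusted p = 0.0433). That call was lost in the fit over all probe sets (adjusted p = 0.0967), after quantile normalization (0.052), with the replicate block (0.0846) and without the filter on dim genes (0.0786). It was also lost without each of 5 arrays in turn, at log2 changes of -0.23 to -0.14, and held only without replicate 1 at 3 h.

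The other probe sets of HSPA5 did not follow the brightest one. Among them 3, of intermediate brightness, went from 9.57 ± 0.07 to 10.80 ± 0.05, from 8.86 ± 0.10 to 10.15 ± 0.07 and from 8.57 ± 0.12 to 9.93 ± 0.10 (log2 value, mean ± SD, n = 3). All 3 h arrays of these probe sets lay above all 0 h arrays. Their increases were 2.35-fold, 2.45-fold and 2.56-fold (limma over all probe sets, adjusted p = 5.15e-05, 5.8e-05 and 6.59e-05). The second brightest rose by 0.35 and the dimmest had a log2 change of -0.03 (adjusted p = 0.827). Averaged over all 6 probe sets HSPA5 stood at 0.67 (limma adjusted p = 2.09e-05), and at 1.23 without probe sets marked as shared or cross-hybridizing, a group that includes the brightest one.

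HSP90B1, which encodes GRP94, the HSP90 chaperone of the ER, showed the same kind of split. Its brightest probe set read 12.39, 12.35 and 12.37 at 0 h and 12.36, 12.22 and 12.32 at 3 h. These arrays overlapped, and the log2 change of -0.07 did not pass (95% interval -0.20 to 0.06, limma adjusted p = 0.336). Among its 7 probe sets 3 rose, by 0.72, 0.47 and 0.23, and 1 fell by 0.37 (limma over all probe sets).

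The lectin chaperones rose. CALR, the soluble lectin chaperone and a calcium store of the ER, read 8.17, 8.15 and 8.40 at 0 h and 9.22, 9.17 and 9.28 at 3 h. All 3 h arrays lay well above the highest 0 h array. The increase was 1.97-fold (log2 change 0.98, SE 0.08, n = 3 per group, limma adjusted p = 4.78e-05), and its second probe set rose by 0.30. CANX (calnexin), the membrane-bound lectin chaperone, rose by 0.21 (limma adjusted p = 0.0172), and 5 of its 9 probe sets rose in the fit over all probe sets, where the brightest did not pass (adjusted p = 0.0542); the 9 changes ran from -0.11 to 0.50. The CANX call ended without replicate 1 or replicate 3 at 0 h (limma adjusted p = 0.0506 and 0.0617). UGGT1, which adds glucose back to misfolded glycoproteins, had a log2 change of -0.13 and did not pass (limma adjusted p = 0.147), while its dimmest probe set rose by 0.46.

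**Figure D2:**
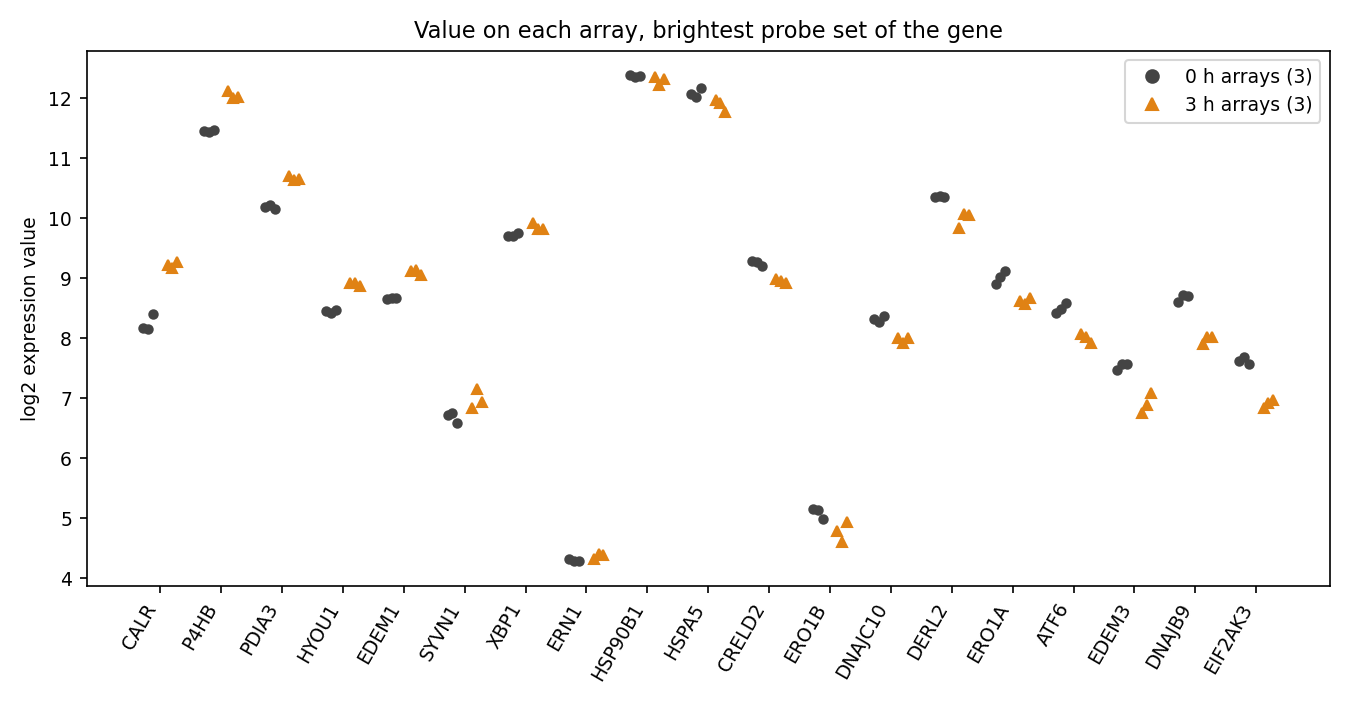
Log2 expression value on each of the 6 arrays for the brightest probe set of 19 ER genes, ordered by their log2 change from CALR to EIF2AK3. Circles are the 3 arrays at 0 h and triangles the 3 arrays at 3 h; the groups overlap only for ERN1 and HSP90B1.

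Among the 7 disulfide enzyme genes 3 isomerases rose, both oxidases fell and 2 further isomerases did not pass, where 20.6% of all genes tested rose and 30.8% fell. The rises of PDIA3 and PDIA6 did not hold without shared or cross-hybridizing probe sets. P4HB, the founding protein disulfide isomerase, read 11.45, 11.44 and 11.48 at 0 h and 12.12, 12.00 and 12.03 at 3 h. No array of one group reached the other. The increase was 1.51-fold (log2 change 0.59, SE 0.06, n = 3 per group, limma adjusted p = 9.84e-05), and all 6 probe sets of P4HB rose, by 0.41 to 1.36.

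PDIA3, the isomerase that works with the lectin chaperones, read 10.19, 10.23 and 10.15 at 0 h and 10.70, 10.64 and 10.65 at 3 h. Every 3 h array was higher, and the gene rose by 0.47 (limma adjusted p = 0.000203). Its other probe set, the one not marked as shared, stood at -0.10 and did not pass (limma adjusted p = 0.247 when it stood for the gene). PDIA6, an isomerase that also binds the sensors, rose by 0.19 (limma adjusted p = 0.0131), and its 3 probe sets ranged from 0.06 to 0.45. The call ended without shared or cross-hybridizing probe sets, where the second brightest stood for the gene at 0.06. PDIA4 and PDIA5 had log2 changes of -0.02 and 0.04 (limma adjusted p = 0.71 and 0.595). The 95% intervals, -0.14 to 0.09 and -0.09 to 0.17, allow small changes either way, and the dimmest PDIA4 probe set rose by 0.48.

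The ERO1 oxidases hand electrons from the isomerases to oxygen and release hydrogen peroxide, the same agent that glucose oxidase makes outside the cell. ERO1A read 8.91, 9.03 and 9.12 at 0 h and 8.62, 8.58 and 8.68 at 3 h. The groups did not overlap, and ERO1A fell by 0.39 (SE 0.07, limma adjusted p = 0.00149). Its second probe set stood at -0.17 and did not pass. ERO1B read 5.15, 5.14 and 4.99 at 0 h and 4.79, 4.60 and 4.94 at 3 h, where replicate 3 came close to the lowest 0 h array. It fell by 0.31 (limma adjusted p = 0.0191), close to the floor, and the call was lost when 0 h replicate 1, 0 h replicate 2 or 3 h replicate 2 was left out (limma adjusted p = 0.0666, 0.0618 and 0.0516).

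Of the sensor genes, that of PERK was lower on every probe set. EIF2AK3 read 7.62, 7.69 and 7.58 at 0 h and 6.83, 6.92 and 6.97 at 3 h. The highest 3 h array was well under the lowest 0 h array. The decrease was 1.65-fold (log2 change -0.72, SE 0.06, n = 3 per group, limma adjusted p = 6.84e-05), and the other probe sets of EIF2AK3 fell by 0.94 and 0.55.

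ATF6 read 8.42, 8.49 and 8.59 at 0 h and 8.07, 8.02 and 7.92 at 3 h on its brightest probe set. The groups did not overlap, and this probe set fell by 0.50 (limma adjusted p = 0.000487). The dimmest probe set of ATF6 rose by 0.44 (limma over all probe sets, adjusted p = 0.00566) and the third stood at -0.05, so the mean over all was -0.04 and did not pass. ERN1 read 4.32, 4.28 and 4.28 at 0 h and 4.32, 4.40 and 4.39 at 3 h, under the floor in both groups, and was not tested.

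XBP1, the transcription factor gene whose mRNA IRE1 splices, read 9.70, 9.70 and 9.75 at 0 h and 9.92, 9.82 and 9.83 at 3 h. Every 3 h array was higher, but the log2 change of 0.14 did not pass (95% interval 0.01 to 0.26, limma adjusted p = 0.0626). Settings in which it passed included a prior that follows intensity (0.0188), a stricter floor (0.0382) and the fit of means over all probe sets. The single XBP1 probe set gives no value for the spliced form.

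Of the 10 ERAD genes 2 rose, 3 fell and 5 did not pass, near the 20.6% and 30.8% of all genes tested that rose and fell. EDEM1, a lectin that draws glycoproteins into degradation, read 8.65, 8.68 and 8.68 at 0 h and 9.12, 9.14 and 9.06 at 3 h. The groups did not overlap, and EDEM1 rose by 0.44 (SE 0.05, limma adjusted p = 0.000266). Its relative EDEM3 read 7.47, 7.58 and 7.57 at 0 h and 6.76, 6.88 and 7.09 at 3 h. All 3 h arrays were lower, and EDEM3 fell by 0.63 (SE 0.09, limma adjusted p = 0.000489). The remaining relative, EDEM2, had a log2 change of 0.07 (limma adjusted p = 0.403). EDEM1 and EDEM3 thus moved in opposite directions on their brightest probe sets, while 3 dimmer probe sets of EDEM1 and 1 of EDEM3 above the floor did not pass.

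SYVN1, the ubiquitin ligase HRD1 at the centre of ERAD, read 6.72, 6.75 and 6.58 at 0 h and 6.84, 7.16 and 6.94 at 3 h. The groups did not overlap but lay close, and SYVN1 rose by 0.30 (limma adjusted p = 0.022), a call that ended without replicate 3 at 0 h (0.25, limma adjusted p = 0.0769) or replicate 2 at 3 h (0.21, limma adjusted p = 0.0546). SEL1L, the partner that holds HRD1 in place, stood at -0.02 (limma adjusted p = 0.83). DERL2, a derlin that helps move substrates across the membrane, read 10.35, 10.37 and 10.35 at 0 h and 9.84, 10.08 and 10.06 at 3 h. All 3 h arrays were lower, replicate 1 the most, and DERL2 fell by 0.36 (limma adjusted p = 0.0033). DERL1 fell by 0.18 (limma adjusted p = 0.0379), a call that ended with the replicate block (limma adjusted p = 0.0723) and, averaged over its probe sets, at -0.06. DERL3 stood at -0.03, the stress-induced scaffold gene HERPUD1 at 0.04 and the lectin gene OS9 at -0.01, and these did not pass (limma adjusted p = 0.867, 0.571 and 0.843). A dimmer probe set of OS9 rose by 0.52.

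In the translocation channel, through which new proteins enter the ER, the pore gene SEC61A1 rose by 0.28 (limma adjusted p = 0.00599). It read 10.10 on every 0 h array and 10.35, 10.50 and 10.30 at 3 h, so the groups did not overlap, and its other probe sets rose by 0.88 and 0.72. The small channel subunit gene SEC61B went from 12.16 ± 0.02 to 11.96 ± 0.06 (n = 3) and fell by 0.20 (limma adjusted p = 0.0158), a call that ended without replicate 1 or 2 at 0 h (limma adjusted p = 0.0511 and 0.0577). SSR1, a subunit of the translocon-associated complex, had a log2 change of -0.10 and did not pass (limma adjusted p = 0.146), while 2 of its dimmer probe sets rose by 0.57 and 0.54.

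The direction of the group therefore turned on which probe sets were read. In the fit over all 49293 probe sets that are not controls, 31.5% passed, 15.9% higher and 15.6% lower at 3 h. Among the brightest probe sets of the 36 ER genes 7 rose and 9 fell there, with a median log2 change of -0.09. Among their 78 other probe sets above the floor 32 rose (41%) and 6 fell (7.69%), with a median of 0.10. The same contrast was present over all genes: 16.4% of 12221 brightest probe sets rose and 25.6% fell, against 26.3% and 19.5% of 15014 other ones. Probe sets of one gene share their transcript and are not replicates.

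**Figure D3:**
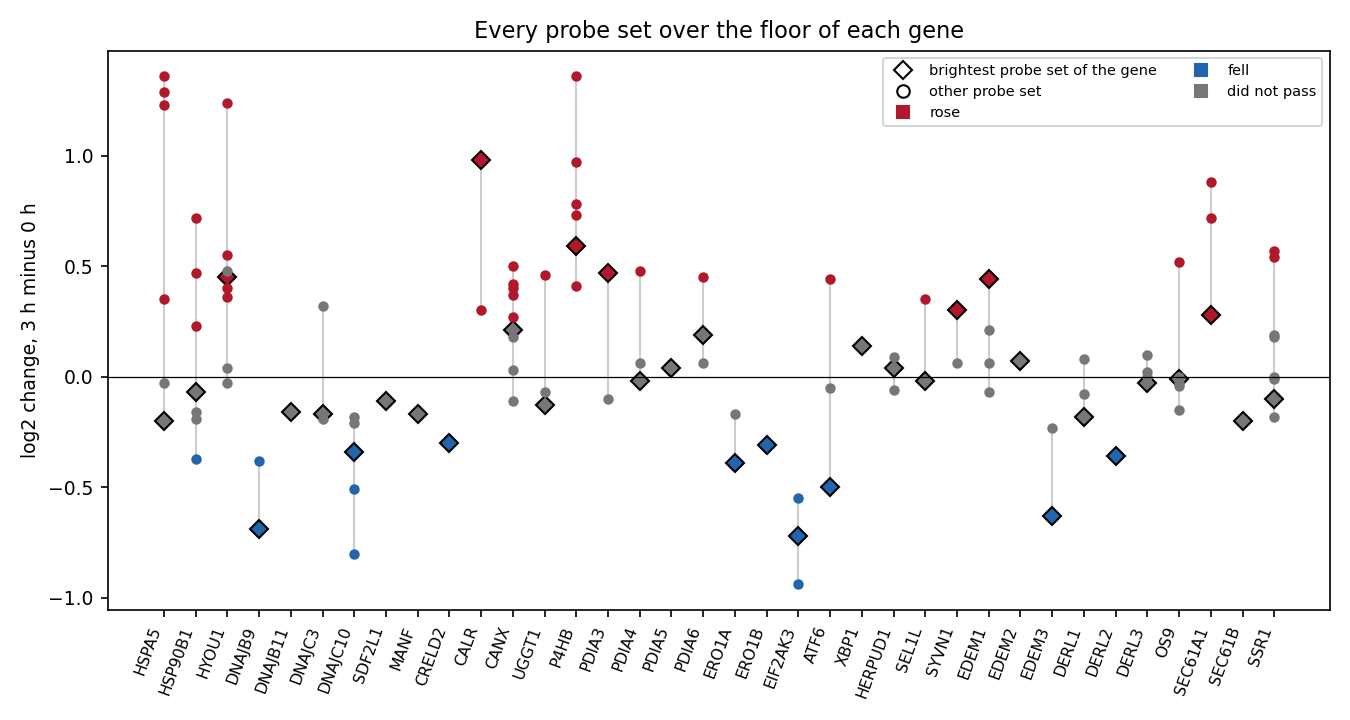
Log2 change (3 h minus 0 h) of every probe set above the floor for the 36 tested ER genes; diamonds mark the brightest probe set of a gene and circles the others, coloured by the fit over all probe sets, in which the brightest HSPA5 probe set did not pass. Of 114 points 39 are red (rose) and 15 blue (fell); the diamond of HSPA5 lies at -0.20 and its highest circle at 1.36.

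Of the 26 ER genes with several probe sets above the floor, 5 had every such probe set called in one direction. CALR, P4HB and SEC61A1 rose on all of theirs (3 genes, 11.5%, beside 9.21% of 7120 such genes), and EIF2AK3 and DNAJB9 fell on all of theirs (2 genes, 7.69%, beside 9.02%). HSP90B1 and ATF6 had probe sets called both ways (7.69% of the 26, beside 3.76% of all such genes). The changes within a gene spanned a median of 0.54 on the log2 scale, beside 0.31 over all such genes, and exceeded 1 for HSPA5, HSP90B1 and HYOU1 (11.5%, beside 2.68%). This span grows with the number of probe sets, which was not matched.

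**Figure D4:**
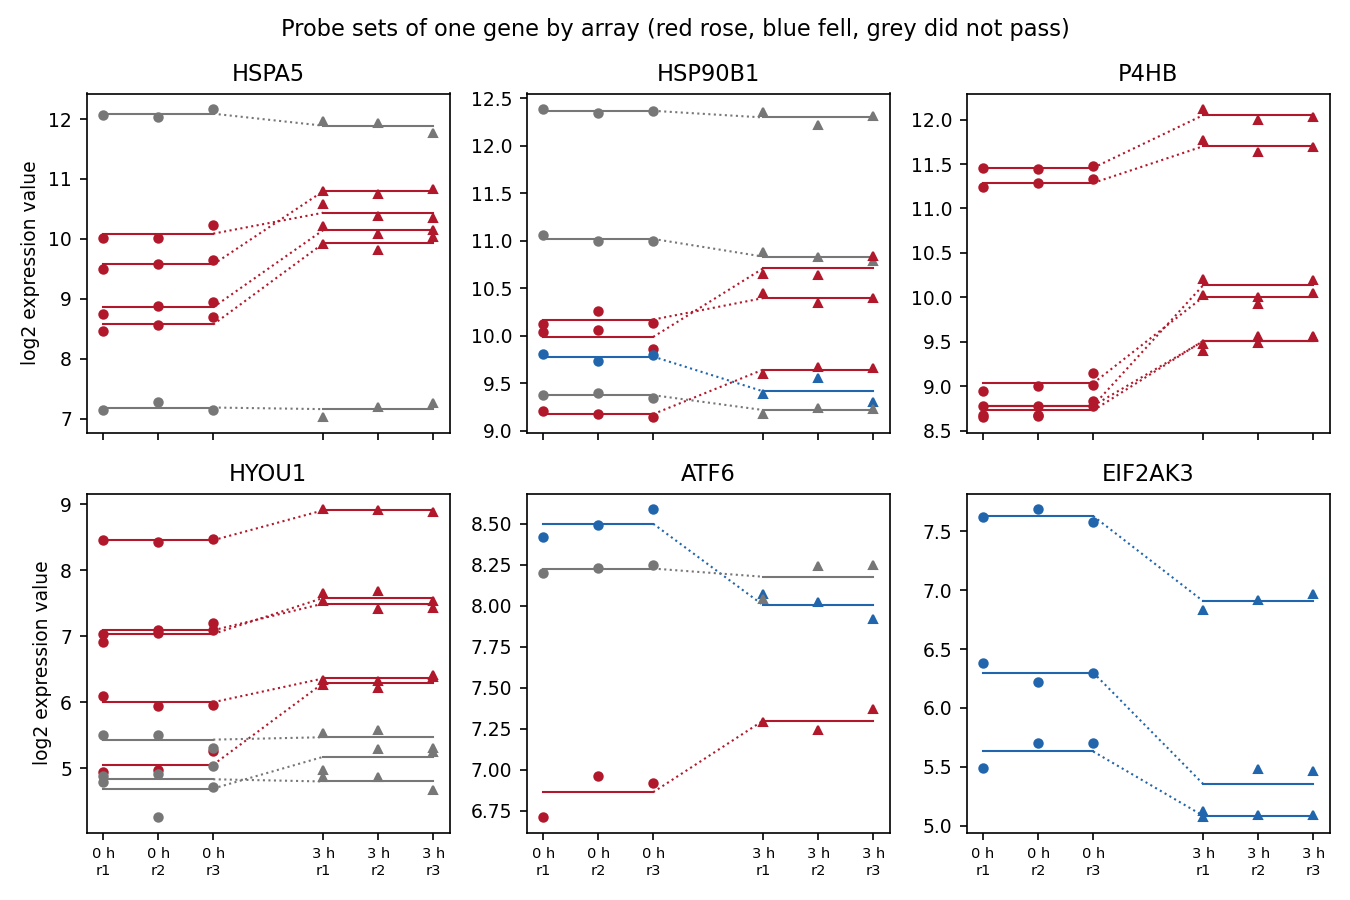
Log2 expression value by array (0 h replicates 1 to 3 as circles, 3 h replicates 1 to 3 as triangles) for all probe sets above the floor of 6 ER genes; solid lines are group means and dotted lines join them. P4HB is red throughout (6 probe sets rose) and EIF2AK3 blue throughout (3 fell), while HSP90B1 and ATF6 hold both colours.

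Values that describe RNA and array preparation moved with the groups too. The log2 difference between 5′ and 3′ control probe sets went from -2.06 ± 0.07 at 0 h to -1.20 ± 0.06 at 3 h for actin and from -0.39 ± 0.05 to -0.13 ± 0.04 for GAPDH (n = 3, two-sided exact permutation p = 0.1 for each, the smallest that 3 against 3 arrays allow). The poly-A spike controls, 24 probe sets, each read lower on all 3 h arrays, at a median log2 change of -0.60. Their part in the differences between probe sets of one gene was not tested, and preparation and treatment cannot be told apart. Correlations between arrays across genes, which are not independent replicates, were 0.996 to 0.998 within groups and 0.979 to 0.983 between them. Of 15 retinal pigment epithelium markers with a probe set, 10 were above the floor. RPE65, RLBP1 and LRAT, visual cycle markers of that tissue, had means under it in both groups, as had TYRP1 and MERTK. MITF, OTX2, KRT8 and KRT18 rose, by 0.33, 0.19, 0.40 and 0.34, and SERPINF1 and RDH11 fell by 0.40 and 0.25. Of 7 photoreceptor and neuron markers, all above the floor, PDE6B and SYT1 fell by 0.36 and 0.22 and 5 did not pass. Of 7 blood and endothelial markers 4 were above the floor, and these 4 did not pass. The part of these shifts in the ER gene values was not tested.

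Set against the promoter matches, the direction of the ER genes that hold ERSE or ERSE-II depended on the probe sets read. By the brightest, of 11 such genes that were tested, 4 rose (CALR, CANX, PDIA6 and HYOU1), 3 fell (HSPA5, CRELD2 and ERO1B, by their brightest probe sets) and 4 did not pass. Their log2 changes ran from -0.31 to 0.98. With the mean over all probe sets, of 10 such genes above the floor 6 rose (HSPA5, HYOU1, CALR, CANX, PDIA6 and XBP1) and 4 did not pass, where 27.2% of all genes tested rose and 29.9% fell. Without shared or cross-hybridizing probe sets 4 rose (HSPA5, HYOU1, CALR and CANX), 3 fell (HSP90B1, CRELD2 and ERO1B) and 4 did not pass, where 21.6% of all genes tested rose and 27.7% fell. CALR, CANX and HYOU1 rose under each of these choices. By the brightest probe sets, of 22 tested ER genes with a promoter entry and no such match, 4 rose and 10 fell, from -0.72 to 0.59. Among 19 other genes with a match 5 rose and 7 fell, and among 9969 other genes without one 2060 rose and 3175 fell. A match is a stretch of letters and was not shown to be a bound site. Only exact letters inside the searched window were counted, so a gene without a match may still hold a variant or a more distant copy.

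Around these genes, 143 further genes of the pathway were listed in 10 groups by function, of which 133 were tested; 30 rose (22.6%) and 46 fell (34.6%), near the 20.6% and 30.8% of all genes tested, with a median log2 change of -0.07. In the PERK and ATF4 arm, 3 of 12 rose and 9 did not pass, at a median of 0.02. SESN2, a stress-induced regulator of mTORC1, rose by 0.79, the transcription factor gene ATF3 by 0.40 and PPP1R15A, which restores translation after PERK has acted, by 0.36 (limma adjusted p = 6.32e-05, 0.000489 and 0.000727). ATF4 itself had a log2 change of -0.03 and DDIT3, which encodes CHOP, one of -0.09 (limma adjusted p = 0.678 and 0.192). These levels say nothing of ATF4 protein, which is set at translation.

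NF-Y is the factor that binds the CCAAT part of ERSE. Among 13 genes of the ATF6 family, its site proteases and NF-Y, listed together with YY1 and WFS1, 3 rose and 4 fell. These shares are near the 20.6% and 30.8% of all genes tested. CREB3L2, a relative of ATF6, rose by 0.69, although its probe sets above the floor ranged from -0.87 to 0.69 and their mean, 0.01, did not pass, and CREB3L1 rose by 0.43. The NF-Y subunit gene NFYA fell by 0.49. MBTPS1, the site-1 protease that cuts ATF6, rose by 0.19 (limma adjusted p = 0.0166). The MBTPS1 call ended without replicate 1 or replicate 2 at 0 h (limma adjusted p = 0.0584 and 0.0607), while the mean over its probe sets was 0.67. Of 8 genes of IRE1 signalling 1 rose and 4 fell: the pro-apoptotic gene BAX rose by 0.31, and MAPK8, the kinase JNK1, and BLOC1S1, an mRNA that IRE1 cleaves, each fell by 0.32. The mean over the MAPK8 probe sets, -0.19, did not pass (limma adjusted p = 0.0858).

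Enzymes that act beside the described genes were mixed, and their counts stand beside 20.6% of all genes tested that rose and 30.8% that fell. Of 11 other disulfide enzymes 2 rose and 4 fell, with the oxidase gene QSOX1 up by 0.62 and the membrane isomerase genes TMX1 and TMX3 down by 0.46 and 0.42. TMX1 stood at 0.21 once shared or cross-hybridizing probe sets were left out. PRDX4, the peroxiredoxin that removes peroxide inside the ER, had a log2 change of -0.15 and did not pass (limma adjusted p = 0.0637), but passed with the mean over probe sets (0.0422), with a stricter floor (0.0396), with median centring (-0.19, 0.0268), with a prior that follows intensity (0.00649) and without 3 h replicate 3 (0.0435). Of 8 lectin and glucosidase genes 4 rose and 2 fell. Both subunit genes of glucosidase II rose, PRKCSH by 0.56 and GANAB, named after its value was seen, by 0.50, and UGGT2 and CLGN fell by 0.63 and 0.56. Of 12 oligosaccharyltransferase genes, which attach sugar chains, 2 rose and 6 fell, from DDOST (0.42) to TMEM258 (-0.45) and OST4 (-0.38).

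Of 20 other translocation genes 12 fell (60%) and 2 rose (10%), beside 30.8% and 20.6% of all genes tested, at a median log2 change of -0.18 beside -0.04 for all genes tested. The signal peptidase genes SEC11C and SEC11A fell by 0.37 and 0.29 and SEC63, which couples the channel to BiP, by 0.27. With shared or cross-hybridizing probe sets left out, SEC63 stood at -0.05 and did not pass (limma adjusted p = 0.614). Other falls in this group passed narrowly, among them SRP54, SPCS2 and SSR4 (limma adjusted p = 0.0427, 0.0407 and 0.0393). Probe sets above the floor ranged from -0.66 to 0.17 for SEC62 and from -0.20 to 0.22 for SRP72, which both fell by their brightest. These 5 genes were named after their values were seen. The pore gene SEC61A1, described with the channel, rose. Of 14 genes of COPII export and retrieval 4 rose and 4 fell, with the scaffold gene SEC16A up by 0.55 and the coat genes SEC24C and SEC24A at 0.47 and -0.48. The SEC24A call ended with the mean over all probe sets (-0.11, limma adjusted p = 0.125) and without shared or cross-hybridizing ones (-0.03, limma adjusted p = 0.713). Of 18 other ERAD genes 5 rose and 5 fell. NPLOC4 and VCP, parts of the complex that pulls substrates out of the membrane, rose by 0.88 and 0.34 (limma adjusted p = 3e-05 and 0.000849), and TXNDC16 and FAM8A1 fell by 0.38 and 0.37. The FAM8A1 call ended without 0 h replicate 2 (limma adjusted p = 0.0589) or 3 h replicate 2 (limma adjusted p = 0.0526). Of 17 other folding factors 4 rose and 5 fell, with the prolyl isomerase genes FKBP9 and FKBP7 at 0.59 and -0.76 and the HSP70-like gene HSPA13 at -0.47.

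**Figure D5:**
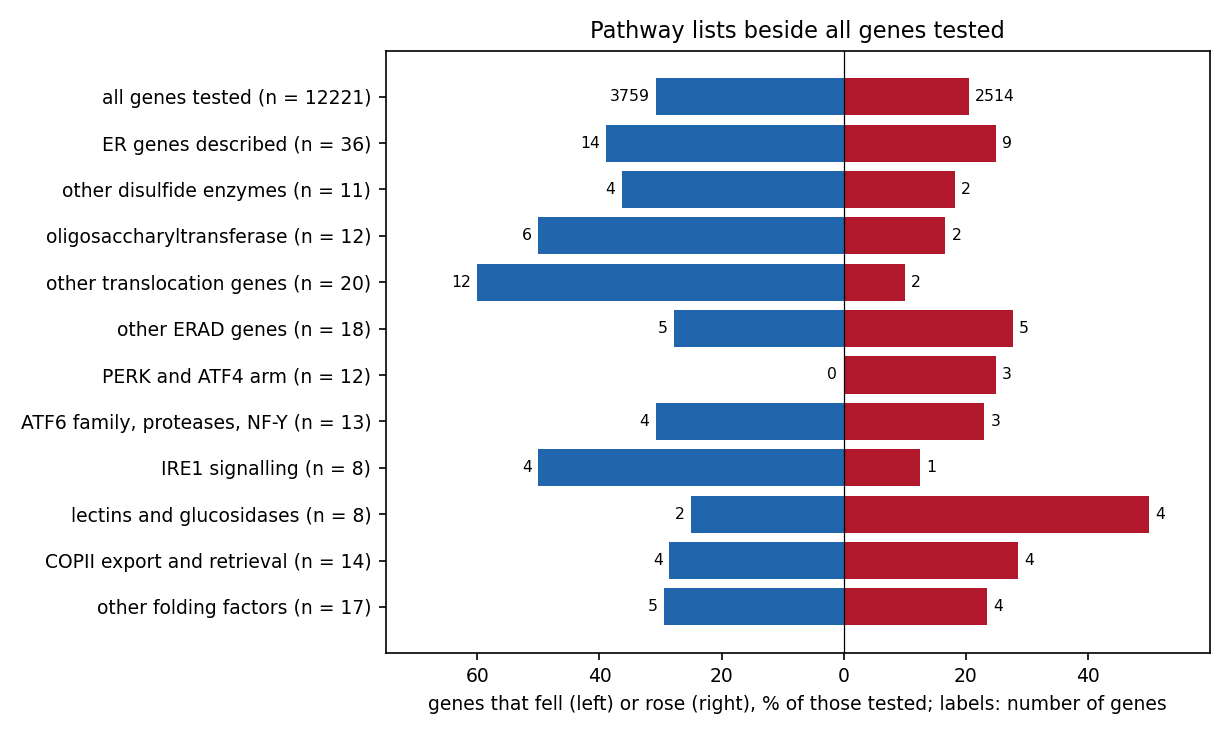
Share of tested genes that fell (left, blue) or rose (right, red) at 3 h in each pathway group, with all 12221 genes tested and the 36 ER genes on top; labels give the number of genes. Bars lead left for other translocation genes (12 fell, 2 rose) and right for lectins and glucosidases (4 rose, 2 fell), and the PERK and ATF4 arm has a bar to the right alone (3 rose).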

How the data were processed

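RNA of 6 ARPE-19 samples was hybridised to 1 array each after 3′ IVT labelling (labels' protocols). The authors deposited log2 values for 49372 probe sets, a scale read from the values. MAS5 and RMA are named, without version or role, in the submitters' processing notes. No filter is recorded in those sources. Array medians lay between 5.30 and 5.34, so a change in total RNA cannot be seen.

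Groups were taken from sample titles. Of 49293 probe sets that are not controls, 44988 have 1 gene symbol, 1832 several and 2473 none. The floor is the 40th percentile of their means. The comparison, 3 h minus 0 h, used limma 3.58.1 in R 4.3.3 (lmFit, eBayes) over all 12221 genes, and again over all probe sets, with a threshold of 0.05. "Rose" and "fell" mean past it. The step was tested on simulated data. The number of arrays limits the precision. Plots used matplotlib 3.10.9.

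The genes, lists and rules were chosen with earlier results of these data known. All 37 genes are named, with array values where a call reached 0.3 and for HSPA5, HSP90B1, XBP1 and the sensors, plus up to 3 called genes per pathway group and ATF4, DDIT3, MBTPS1, VCP, PRDX4 and PPP1R15A. Alternatives covered normalization, centring, floor, probe set choice, prior, array weights, replicate block, threshold and each array left out.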

Additional observations from a re-analysis of the deposited data

How the results depend on the processing

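Of the 23 called ER genes 8 kept their direction and call under all 16 alternatives: HYOU1, CALR, P4HB, ERO1A, EIF2AK3, EDEM1, DERL2 and SEC61A1. DNAJB9 and EDEM3 kept theirs under the 15 that gave them a value; DNAJB9 has none without shared probe sets and EDEM3 none with the mean over all. Signs of values called on at least one side turned with the choice of probe set, while some values near 0 that were not called, such as ATF4, SEL1L and DERL3, also changed sign when an array was left out. Averaged over all probe sets HSPA5 stood at 0.67, PDIA4 at 0.17 and SSR1 at 0.15 on the log2 scale, all called. With probe sets marked as shared or cross-hybridizing left out, HSPA5 stood at 1.23, OS9 at 0.52, PDIA3 at -0.10 and TMX1 at 0.21, of which PDIA3 was not called. The cause was not tested. The 23 calls (9 higher, 14 lower) became 20 (12 higher, 8 lower) with the mean over probe sets, and 14 (6 higher, 8 lower) at an adjusted p of 0.01, where the other pathway genes had 26 lower calls against 46. With an array left out, the members called ran from 16 to 21, those higher from 7 to 9 and those lower from 8 to 12 (8 without 0 h replicate 1 and 9 without 0 h replicate 2). The replicate block gave 19 member calls and 5838 of all genes tested, against 6273. Deviations of same-numbered arrays correlated at -0.04, -0.02 and -0.19, and those of differently numbered arrays at -0.14 to 0.17. These values do not show a pairing by replicate number, but 3 arrays per group are too few to exclude one. The alternatives for the other pathway genes were chosen after seeing the data. Signal near the floor limits ERN1 and ERO1B. Markers of other tissues also lay above the floor, such as HBB (mean log2 value 5.92) and CRX (5.61), named after their values were seen. UGGT1 (5.97), DERL3 (5.96), PRKCSH (5.86), TXNDC16 (5.21) and the HYOU1 probe set that rose by 1.24 (5.68) stood near that level. Passing the floor therefore does not show that a gene is expressed, and these values may hold background.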
